A study of Mus musculus with 6 samples.

Results

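The lipopolysaccharide receptor and the Toll-like receptors of the cell surface were followed through 10 genes in macrophages of young and aged mouse wounds. They were picked by gene symbol: the receptor genes Tlr1, Tlr2, Tlr4 and Tlr6, the co-receptor genes Cd14 and Ly96, the adaptor genes Myd88 and Tirap, and the kinase genes Irak3 and Irak4. All 10 were among the 15168 genes of the count table, and all 10 passed the filter on low counts that left 11878 genes for testing. Bulk RNA-sequencing covered 3 young samples (12 weeks of age) and 3 aged samples (24 months), all from female wild-type C57BL/6J mice. Per the study's methods, the mice were wounded under isoflurane and given buprenorphine for pain. The sample titles carry set letters A, B and C, the same letters in both ages, and the paper does not say what a set is. Each mouse had 2 full-thickness wounds of 10 mm in the skin of the back, and cells were taken on Day 3. Macrophages were sorted by F4/80 and CD64, in the paper's methods among cells positive for CD45 and CD11b, and Ly6G is not among the markers of this sort. How many mice stand behind a sample is not stated in the labels, and the mice were housed at either of 2 sites, with none given per sample. The p-values therefore measure the spread between these samples only. In bulk RNA, a change in the share of cells that carry a transcript and a change in the amount per cell cannot be told apart.

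The depth was similar in all samples, with totals of 15270103 to 17927483 expected counts (estimated numbers of reads per gene), so that 1 count corresponded to between 0.0553 and 0.0701 CPM, the usual scale of counts relative to the total of the library. Levels below are CPM after scaling of the library sizes by the trimmed mean of M-values (TMM). Markers of the sorted cells were present in every sample, with Adgre1 (F4/80) lower and Itgam (CD11b) higher in aged samples. Among 11 tested neutrophil markers, 4 (Cd177, Cxcr2, Lcn2 and Retnlg) were higher in aged samples at an adjusted p-value under 0.05 and 0 were lower. The summed level of the 11 ran from 651 to 1008 CPM in young samples. It was 1362 CPM in aged A, 737 CPM in aged B and 1347 CPM in aged C. Ly6g, the defining marker of neutrophils, lay between 6.14 and 10.9 CPM in all samples, and the granule gene Elane was too low to test. Summed macrophage markers ran from 27966 to 43048 CPM in young and from 20174 to 25536 CPM in aged samples. Lyz2 made up most of this sum, at 24157 to 38843 CPM in young and 16240 to 21389 CPM in aged samples. Of the 8 markers, Lyz2, Cd68 and Adgre1 were lower in every aged sample than in every young one, and Itgam and Fcgr1 higher. Summed erythroid markers ran from 117 to 372 CPM in young and from 31.8 to 118 CPM in aged samples. All 3 erythroid markers were lower in aged samples at an adjusted p-value under 0.05 (log2 fold changes of -1.73, -1.80 and -2.15). The keratin transcript Krt14 reached 80.2 CPM in aged B and stayed under 1 CPM in the other samples. Of the endothelial markers, Pecam1 was higher in aged samples (log2 fold change 1.69, edgeR adjusted p = 0.00220), Kdr had a log2 fold change of -0.40 and did not pass, and Cdh5 was too low to test. Fibroblast markers summed to 118 CPM in aged B and to between 12.3 and 40.8 CPM in the other samples. Mast cell markers summed to between 17.8 and 66.6 CPM in young samples and to 50.7, 1.02 and 0.741 CPM in aged A, B and C. Dendritic cell markers summed to between 16.1 and 54.7 CPM in young samples and to 93.8, 30.3 and 39.6 CPM in aged A, B and C. The part of these markers in the results was not tested.

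Toll-like receptor 4 (TLR4) senses lipopolysaccharide, a component of the outer membrane of Gram-negative bacteria, in a complex with the small secreted protein MD-2, which Ly96 encodes. CD14 is a surface protein that receives single lipopolysaccharide molecules and hands them to this complex. TLR2 recognises bacterial lipoproteins, pairing with TLR1 for triacylated and with TLR6 for diacylated ones. The receptors share an intracellular route: TIRAP bridges TLR2 and TLR4 to the adaptor MyD88, MyD88 gathers the kinase IRAK4 and its relatives, and the signal ends in NF-κB and MAP kinases. IRAK3, also called IRAK-M, lacks strong kinase activity and holds the route back. In wounds these receptors also meet products of damaged tissue.

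Aged Day 3 wound macrophages held more transcript of the receptor genes Tlr4 and Tlr2, the co-receptor gene Cd14 and the inhibitory kinase gene Irak3 than young ones, with ratios of the mean CPM of 2.89, 1.74, 2.14 and 2.41. Tirap was also higher, 1.84-fold. The MD-2 gene Ly96 and the kinase gene Irak4 had nearly the same mean level in both ages, and Myd88 was not called. Tlr1 and Tlr6, whose transcripts are partly identical, had log2 fold changes of opposite sign as deposited and nearly the same mean in both ages when added up. At the study's thresholds, an adjusted p-value below 0.05 together with a change above 2-fold, 4 of the 10 members were called higher in aged samples (Tlr4, Tlr6, Cd14 and Irak3), against 4.59% of all genes tested, and 0 were called lower, against 4.2%. With the adjusted p-value alone, 6 members were higher (9.73% of all genes) and 0 were lower (7.97%), and without adjustment the counts at p below 0.05 were 6 and 1, against 18.1% and 16.5% of all genes (edgeR quasi-likelihood test). DESeq2 and limma-voom also gave 6 and 0 with the adjusted p-value. Of all genes, 11.7% were higher and 8.59% lower with DESeq2, and 16.3% and 14.4% with limma-voom. In these 6 members every aged sample lay above every young sample, which held for 19.2% of all genes, and 0 members had all aged samples below (19% of all genes). The median log2 fold change was 0.84 over the members and -0.02 over all genes tested.

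The counts changed when single samples were left out. Without young C, 2 members kept an adjusted p-value under 0.05 (Tlr4 and Irak3), and the share of all genes that were higher at that threshold fell to 1.24%. Without aged C there were 3 (Tlr4, Tlr6 and Irak3; 2.87% of all genes), and without young B 4 (Tlr4, Tlr2, Cd14 and Irak3; 3.57% of all genes).

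**Figure D1:**
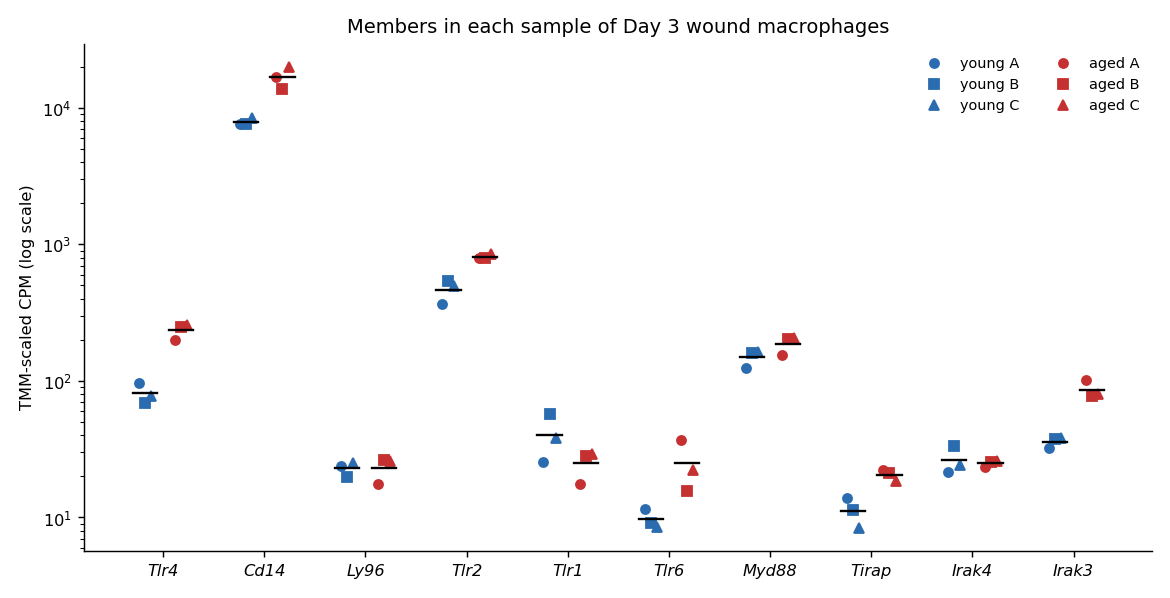
Levels of the 10 members in each sample, as TMM-scaled CPM on a log axis, with young samples in blue, aged samples in red, symbols for A, B and C, and a black bar at the mean of each age. The aged points lie above all young points for Tlr4, Cd14, Tlr2, Tlr6, Tirap and Irak3 and overlap them for the other 4 genes.

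**Figure D2:**
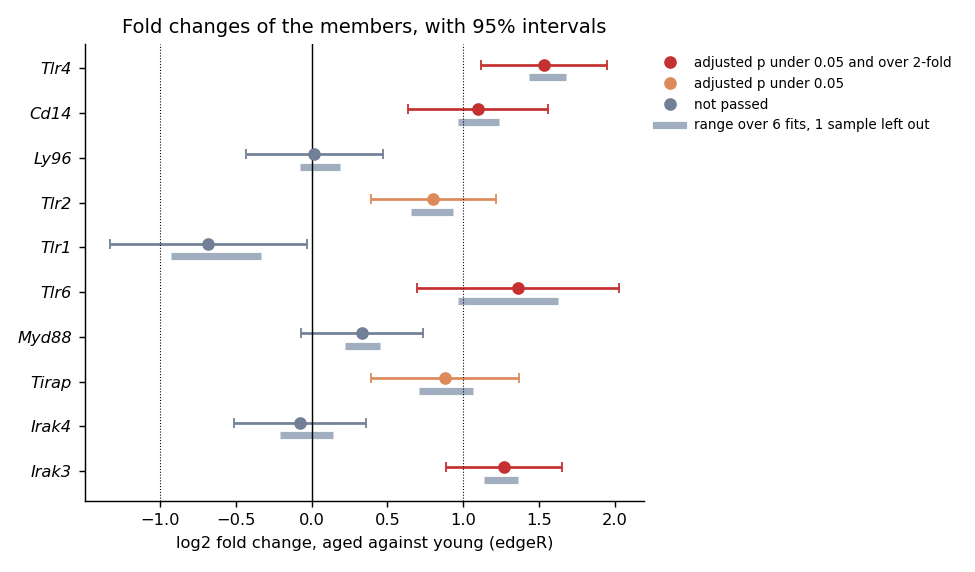
Log2 fold change of each member in aged against young samples (edgeR), with points and whiskers for the estimate and its 95% interval, colours for the outcome of the test, grey bars for the range over 6 fits that each left out 1 sample, and dotted lines at a 2-fold change. Tlr4 lies highest at 1.53 and Tlr1 lowest at -0.68.

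Of these genes, Tlr1 and Tlr6 need their sequence to be read first, because the reads behind them cannot all be assigned to 1 gene. They are neighbours on the minus strand of chromosome 5 of mm10 (GRCm38), with Tlr1 from 64924679 to 64933563 and Tlr6 from 64952031 to 64960097, 18467 bases apart. A stretch of 910 coding bases is 98.9% identical between them, with 10 differences, from base 1294 to 2203 of the 2385 coding bases of Tlr1 and from base 1333 to 2242 of the 2418 of Tlr6 (longest GENCODE M21 transcripts). Within it, runs of 229 and 208 identical bases are longer than a 150-base read. The windows below show the run of 229 bases and what follows it, with the capitals marking the bases that differ. Both are coding sequence, 5′ to 3′ on the minus strand of GRCm38, read from the GENCODE transcripts: Tlr1 at chr5:64925466-64925765 (coding bases 1468 to 1767) and Tlr6 at chr5:64953757-64954056 (coding bases 1507 to 1806).
Tlr1: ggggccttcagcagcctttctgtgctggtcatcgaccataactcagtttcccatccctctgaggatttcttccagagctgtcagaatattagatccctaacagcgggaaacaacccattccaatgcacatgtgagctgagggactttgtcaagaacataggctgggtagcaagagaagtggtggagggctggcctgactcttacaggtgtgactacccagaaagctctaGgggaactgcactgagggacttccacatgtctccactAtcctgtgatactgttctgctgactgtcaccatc
Tlr6: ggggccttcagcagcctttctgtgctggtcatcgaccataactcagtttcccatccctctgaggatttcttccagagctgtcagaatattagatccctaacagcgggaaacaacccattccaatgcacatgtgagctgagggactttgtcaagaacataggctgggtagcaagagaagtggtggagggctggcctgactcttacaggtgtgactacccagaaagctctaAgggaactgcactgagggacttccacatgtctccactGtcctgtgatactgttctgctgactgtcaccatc
Counted from the first coding base of Tlr1, the differences are G1697A and A1734G, with the base of Tlr1 first. A 150-base read from within the first 229 bases is the same for both genes. Of all 150-base words in the longest Tlr1 transcript, 139 (4.83%) also occur in Tlr6, which is 3.94% of the words of Tlr6. No other member shares a 150-base word with another gene.

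Tlr4, the lipopolysaccharide receptor itself (chromosome 4, 66827584 to 66930284, plus strand), was measured at 95.9, 69.1 and 78.1 CPM in young A, B and C. In aged A, B and C it was measured at 198, 246 and 258 CPM. All aged samples were high, and the groups did not overlap. The mean of 81.0 ± 13.6 CPM (SD, n = 3) for young macrophages compared with 234 ± 31.7 CPM for aged ones, a log2 fold change of 1.53 with a standard error (SE) of 0.19 (edgeR adjusted p = 0.00202). Tlr4 ranked 41 by p-value among all genes tested. Its adjusted p-value stayed under 0.05 in all 6 fits that each left out 1 sample, with 0.0262 without young C as the highest.

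Cd14 (chromosome 18, 36725067 to 36726798, minus strand) was by far the most abundant member. It was at 7634, 7590 and 8439 CPM in young A, B and C and at 16832, 13817 and 19916 CPM in aged A, B and C. No aged sample overlapped the young ones, and the young samples lay close together. For Cd14 the log2 fold change was 1.10 (SE 0.21, edgeR adjusted p = 0.0110). It passed in 4 of the 6 fits that left out a sample, the adjusted p-value reaching 0.0549 without aged C. The members together, Cd14 above all, took 0.928%, 0.929% and 0.923% of all counts in young A, B and C and 1.70%, 1.50% and 1.94% in aged A, B and C.

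Ly96, whose product MD-2 binds the lipid part of lipopolysaccharide and without which TLR4 does not respond to it, did not follow its partners. It lies on chromosome 1 from 16688051 to 16709611 (plus strand). Young A, B and C held 23.8, 19.7 and 25.2 CPM, and aged A, B and C held 17.4, 26.2 and 25.7 CPM. Aged A was the lowest of all samples and aged B the highest, so the ages overlapped fully. Its log2 fold change was 0.02 (SE 0.20, edgeR adjusted p = 0.965), with a 95% interval from -0.44 to 0.47, or from 0.740-fold to 1.38-fold. A change within that interval was not detectable here.

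Tlr2 (chromosome 3, 83836272 to 83841767, minus strand) encodes the receptor chain that both lipoprotein receptors share. In young A, B and C it was at 367, 541 and 492 CPM, and in aged A, B and C at 793, 801 and 847 CPM. The aged samples were tightly grouped above the more scattered young ones. With means of 467 ± 89.6 CPM (young) and 814 ± 28.9 CPM (aged), Tlr2 had a log2 fold change of 0.80 (SE 0.19, edgeR adjusted p = 0.0201), under the 2-fold threshold. It passed in 4 of the 6 fits without 1 sample, and its adjusted p-value reached 0.0831 without young C.

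The genes of the partner chains of TLR2 gave opposite values as deposited. Tlr6 was at 11.5, 9.15 and 8.45 CPM in young A, B and C and at 37.1, 15.5 and 22.2 CPM in aged A, B and C. The aged samples were all higher, with aged A well above the other two. Its log2 fold change was 1.36 (SE 0.30, edgeR adjusted p = 0.0170), which passed in 4 of the 6 fits without 1 sample and reached 0.0896 without young C. Tlr1 was at 25.4, 56.8 and 38.0 CPM in young A, B and C and at 17.6, 28.2 and 29.2 CPM in aged A, B and C. Young A lay among the aged samples, and young B was the highest. The log2 fold change of -0.68 (SE 0.29) had an unadjusted p-value of 0.0410 and an adjusted p-value of 0.127 in the edgeR test. Without young A the adjusted p-value of Tlr1 was 0.0285, and without young B it was 0.452.

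The deposited counts of both genes carried fractions in all 6 samples, as much as 0.373 from a whole number for Tlr6 and 0.371 for Tlr1, yet their sum was whole in every sample within 0.02 counts. In young A, B and C the sums were 667, 1124 and 703 counts, and in aged A, B and C they were 781, 686 and 832 counts. As summed levels these were 36.9, 65.9 and 46.4 CPM in young and 54.7, 43.7 and 51.4 CPM in aged samples. Unlike Tlr6 alone, the sum overlapped between the ages, and its mean of 49.8 ± 14.8 CPM for young stood beside 49.9 ± 5.65 CPM for aged macrophages. Summed, the pair had a log2 fold change of 0.005 (SE 0.22, edgeR adjusted p = 0.991). What differed was the split. Tlr6 took 31.2%, 13.9% and 18.3% of the summed counts in young A, B and C and 67.8%, 35.6% and 43.2% in aged A, B and C. All aged shares lay above all young ones (exact permutation test, two-sided, p = 0.1, which 3 against 3 samples cannot go below). The part that the assignment of shared reads had in this split was not tested. The call of Tlr6 holds for the counts as deposited, and the sum of both genes did not pass.

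**Figure D3:**
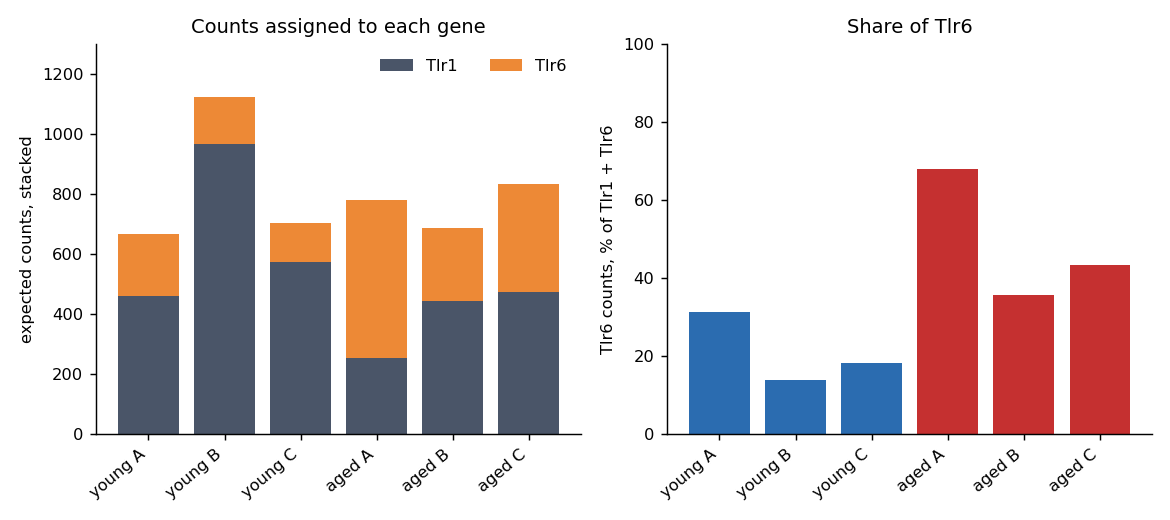
Left, expected counts of Tlr1 (grey) and Tlr6 (orange) stacked for each sample. Right, counts of Tlr6 as a percentage of both genes together, which ran from 13.9% to 31.2% in young (blue) and from 35.6% to 67.8% in aged samples (red).

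Of the adaptor genes, Tirap (chromosome 9, 35184551 to 35200291, minus strand), the bridge between receptor and MyD88, was at 13.9, 11.3 and 8.39 CPM in young A, B and C. In aged A, B and C it was at 22.3, 21.2 and 18.4 CPM. Every aged sample was higher than every young one, at a low level throughout. Its log2 fold change was 0.88 (SE 0.22, edgeR adjusted p = 0.0251). It passed in 1 of the 6 fits without 1 sample, fewer than any other member with an adjusted p-value under 0.05, with adjusted p-values of 0.0103 to 0.109 and the highest without young C. Tirap overlaps Srpr on the opposite strand, and whether the counting used the strand is not stated. Srpr, which encodes a subunit of the signal recognition particle receptor, was also higher in aged samples (70.8 against 113 CPM, log2 fold change 0.68, edgeR adjusted p = 0.0208), and its part in the Tirap value was not tested.

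Myd88 (chromosome 9, 119335934 to 119341411, minus strand), the adaptor common to most Toll-like receptors, was at 124, 159 and 163 CPM in young A, B and C and at 156, 202 and 205 CPM in aged A, B and C. Aged A lay below young B and young C, so the ages overlapped. The log2 fold change was 0.33 (SE 0.18, edgeR adjusted p = 0.222), with a 95% interval of -0.07 to 0.73. Myd88 did not pass in any of the fits without 1 sample. It overlaps Acaa1a on the opposite strand, an enzyme gene of fatty acid oxidation that had a log2 fold change of -0.43 (adjusted p = 0.165 in the same edgeR test). Slc22a14, which overlaps it on the same strand, was not analysed here.

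Of the kinase genes, the inhibitory one rose and the activating one did not pass. Irak3 (chromosome 10, 120141648 to 120202130, minus strand) was at 32.0, 37.7 and 38.0 CPM in young A, B and C and at 101.7, 77.1 and 80.7 CPM in aged A, B and C. All aged samples were high, aged A the most. Irak3 had a log2 fold change of 1.27 (SE 0.17, edgeR adjusted p = 0.00319), and it passed in all 6 fits without 1 sample, with adjusted p-values of 0.00354 to 0.0292. Irak3 overlaps Tmbim4 on the opposite strand, a gene that had a log2 fold change of 0.21 (edgeR adjusted p = 0.436).

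Irak4, the kinase that MyD88 recruits first (chromosome 15, 94543643 to 94581815, plus strand), was at 21.4, 33.4 and 24.2 CPM in young A, B and C. In aged A, B and C it was at 23.5, 25.7 and 25.8 CPM. Young B stood above the others, and all aged samples lay within the range of the young ones. Irak4 had a log2 fold change of -0.08 (SE 0.20, edgeR adjusted p = 0.814), with a 95% interval of -0.51 to 0.36, and its sign depended on the samples and the tool used. Twf1, which overlaps Irak4 on the opposite strand and encodes an actin-binding protein, had a log2 fold change of 0.62 (edgeR adjusted p = 0.0619).

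Within an age the samples ordered the members differently. Aged A was the lowest aged sample for 6 members (Tlr4, Tlr2, Tlr1, Ly96, Myd88 and Irak4) and the highest for 3 (Tlr6, Tirap and Irak3). Aged C was the highest for 6 members. Among young samples, A was the lowest for 5 members (Tlr1, Tlr2, Myd88, Irak3 and Irak4) and the highest for 3 (Tlr4, Tlr6 and Tirap).

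Ratios of counts within a sample do not depend on how libraries are scaled, and 6 were formed between members. For each count of Tlr4, Ly96 gave 0.248, 0.285 and 0.322 counts in young A, B and C. In aged A, B and C it gave 0.0880, 0.106 and 0.0996 counts. The ratio of Ly96 to Tlr4 was lower in every aged sample, with a mean log2 difference of -1.54. Irak3 over Irak4 was 1.50, 1.13 and 1.57 in young A, B and C and 4.33, 3.00 and 3.13 in aged A, B and C. The ratio of the inhibitory to the activating kinase transcript was higher in every aged sample, with a mean log2 difference of 1.31. Tlr1 over Tlr6 also separated the ages, with a log2 difference of -1.92, subject to the shared reads described above. For these 3 ratios the two-sided exact permutation test gave p = 0.1, the smallest possible, and 0.2 after Benjamini-Hochberg adjustment over the 6 ratios. Cd14 over Tlr4 (log2 difference -0.45, exact p = 0.2), Tlr2 over Tlr4 (-0.72, exact p = 0.2) and Myd88 over Tirap (-0.58, exact p = 0.3) overlapped between the ages, with adjusted values of 0.24, 0.24 and 0.3.

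**Figure D4:**
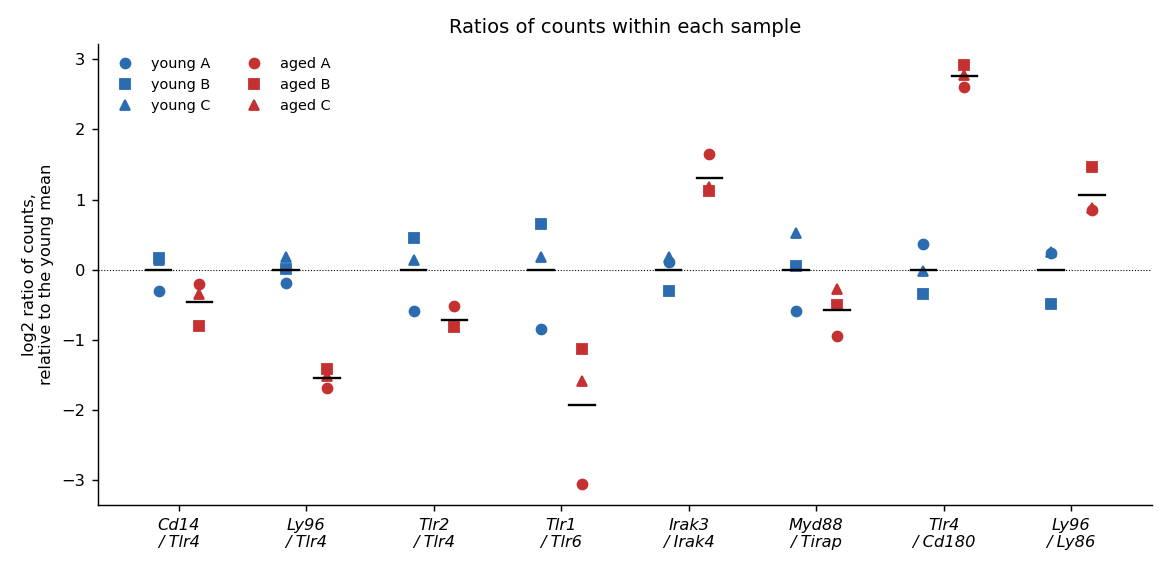
Log2 ratio of the counts of 2 genes in each sample, relative to the mean of the young samples, with bars at the mean of each age. Ly96 over Tlr4 lies lower in all aged samples, at -1.54 on average, and Irak3 over Irak4 and Tlr4 over Cd180 lie higher, at 1.31 and 2.76. The ratios with Cd180 and Ly86 were chosen after the values were seen.

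Levels of different genes were compared as CPM per kilobase of the longest GENCODE transcript. In young macrophages Cd14 was highest at 4807 ± 291 CPM per kilobase (SD, n = 3), followed by Tlr2 at 155 ± 29.7, Myd88 at 76.0 ± 10.9 and Ly96 at 36.2 ± 4.54. Tlr4 followed at 19.9 ± 3.34, Tlr1 at 13.2 ± 5.22, Irak3 at 11.6 ± 1.09 and Irak4 at 7.66 ± 1.84. Tlr6 and Tirap were the lowest, at 2.64 ± 0.435 and 2.44 ± 0.599 CPM per kilobase. Among neighbours in this order, the ranges of young samples of Tlr4 and Tlr1, of Tlr1 and Irak3, and of Tlr6 and Tirap overlapped.

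In aged macrophages the first 3 places were the same, with Cd14 at 10271 ± 1858, Tlr2 at 269.9 ± 9.59 and Myd88 at 95.6 ± 14.1 CPM per kilobase. Tlr4 then came before Ly96, at 57.5 ± 7.77 against 36.6 ± 7.80 CPM per kilobase. The samples of the pair did not overlap in either age: Ly96 ran from 31.1 to 39.8 and Tlr4 from 16.9 to 23.5 in young samples, and Ly96 from 27.6 to 41.5 and Tlr4 from 48.6 to 63.3 in aged samples. With the coding length in place of the transcript length, Tlr4 and Ly96 changed places in the same way. Irak3 followed at 27.9 ± 4.30 CPM per kilobase, then Tlr1 at 8.25 ± 2.12, Irak4 at 7.27 ± 0.382, Tlr6 at 6.79 ± 3.01 and Tirap at 4.50 ± 0.436. Among neighbours in this order, the ranges of Ly96 and Irak3, of Tlr1, Irak4 and Tlr6, and of Tlr6 and Tirap overlapped. Tirap ranked 10 of the members by transcript length and 7 in aged samples by coding length, and the places of Tlr1, Tlr6, Irak3 and Irak4 also depended on the length used in 1 or both ages.

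Promoter sequences of the members were searched for short motifs, and a link of any motif to the age difference was not tested. RefSeq (GRCm38.p6) gave 11 windows of 250 bases before to 50 bases after a start for 7 members. Tlr4, Cd14 and Ly96 had none in the table used. The motifs were searched on both strands: GGG and TCC with any 4 bases between them for NF-κB, GAGGAA for the myeloid factor PU.1, and TTTC and TTTC with any 2 bases between them for interferon-stimulated response elements. The first was found in 4 of the 11 windows (Tlr2, Tlr6, Tirap and Irak3) and occurs in 19.2% of 32851 windows of the same length. The second was found in 2 of the 11 (Tlr1 and Irak3; 28.3% of all windows) and the third in 2 of the 11 (Myd88 and Tlr6; 3.44% of all windows). The Tlr2, Irak3 and Myd88 stretches are printed as examples of a receptor, an inhibitor and an adaptor gene, from 250 bases before to 30 after the start, 5′ to 3′ on the minus strand, with the motif in capitals. They lie at chr3:83841579-83841858 for Tlr2, chr10:120201568-120201847 for Irak3 and chr9:119339989-119340268 for Myd88.
Tlr2 promoter: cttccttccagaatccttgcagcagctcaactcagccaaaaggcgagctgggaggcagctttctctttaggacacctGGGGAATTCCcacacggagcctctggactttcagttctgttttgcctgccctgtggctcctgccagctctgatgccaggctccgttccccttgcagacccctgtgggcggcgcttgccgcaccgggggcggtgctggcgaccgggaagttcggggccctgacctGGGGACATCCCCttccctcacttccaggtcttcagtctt
Irak3 promoter: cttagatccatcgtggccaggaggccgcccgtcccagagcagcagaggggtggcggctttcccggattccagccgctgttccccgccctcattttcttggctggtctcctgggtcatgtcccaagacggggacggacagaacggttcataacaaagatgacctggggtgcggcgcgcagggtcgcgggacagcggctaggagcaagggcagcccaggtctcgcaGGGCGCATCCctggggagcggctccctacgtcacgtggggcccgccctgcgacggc
Myd88 promoter: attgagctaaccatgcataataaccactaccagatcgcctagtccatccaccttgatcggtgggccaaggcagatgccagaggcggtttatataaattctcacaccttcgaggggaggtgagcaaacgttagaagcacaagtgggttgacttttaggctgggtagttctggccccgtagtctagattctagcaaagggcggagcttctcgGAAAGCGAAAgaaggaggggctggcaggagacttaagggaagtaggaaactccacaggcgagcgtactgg
Tlr2 held the NF-κB type motif 3 times, starting 173, 9 and 7 bases before the start, the latter 2 overlapping each other on opposite strands. In Irak3 it began 26 bases before the start, and in Myd88 the response element began 40 bases before it. A match is a description of these letters and not a binding site.

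The members were then set beside 8 lists of other genes of the pathway, read from the same edgeR test. Their counts are those with an adjusted p-value under 0.05, which 9.73% of all genes tested reached as higher and 7.97% as lower, so that 1 gene in 10 is close to this background. In the alternatives this background ran from 1.24% (without young C) to 16.3% (limma-voom) as higher, and from 0.548% to 14.4% as lower. The other Toll-like receptors, mostly sensors of nucleic acids inside the cell, did not pass in either direction, with 0 of 6 tested higher and 0 lower (1 and 0 with p below 0.05 before adjustment), and 1 was higher without aged A, without young A, with DESeq2, with limma-voom and with a filter of 10 counts in every sample. The highest was Tlr5, the flagellin receptor, with a log2 fold change of 1.24 (edgeR adjusted p = 0.0527), and the lowest Tlr3, at -0.23. The median was 0.11.

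Accessory proteins and folding chaperones split, with 2 of 9 higher and 2 lower (1 higher without young B, young C, aged B or aged C). CD180 (RP105) is a relative of TLR4 that lacks the signalling domain, and it pairs with MD-1, the product of Ly86, as TLR4 does with MD-2. Cd180 was at 8.24, 9.80 and 8.85 CPM in young A, B and C and at 3.64, 3.63 and 4.20 CPM in aged A, B and C. Ly86 was at 192, 262 and 201 CPM in young and at 92.2, 90.0 and 133 CPM in aged samples. Both were lower in every aged sample, with log2 fold changes of -1.23 and -1.06 (edgeR adjusted p = 0.0107 and 0.0118), and both passed in every fit without 1 sample except that without young C. The ratio of Tlr4 to Cd180 was 11.6, 7.05 and 8.83 in young A, B and C and 54.4, 67.9 and 61.4 in aged A, B and C. It had a log2 difference of 2.76, while Ly96 over Ly86 differed by 1.07, and both ratios were chosen after the values were seen. Tlr4 was higher and Cd180 lower in every aged sample, so their ratio had to separate the ages. Each ratio had an exact permutation p of 0.1, which is no added support for ratios chosen in this way. Higher in aged samples were Itgam, a chain of complement receptor 3 (log2 fold change 0.99), and the scavenger receptor gene Cd36 (0.83), the latter named after its value was seen. Hsp90b1, the chaperone gp96 that folds Toll-like receptors, had a log2 fold change of 0.73 (edgeR adjusted p = 0.0730), also named after its value was seen.

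Among genes of endogenous ligands of TLR2 and TLR4, 2 of 7 were higher and 0 lower (1 higher without young C, 3 without aged A or aged B). Vcan, which encodes the proteoglycan versican, rose from 29.2 to 128 CPM (log2 fold change 2.13, edgeR adjusted p = 0.00136). Fn1, the fibronectin gene, had a log2 fold change of 0.96 and was named after its value was seen. The lowest was Hmgb1, at -0.35. The calprotectin genes S100a8 and S100a9, which are named here as neutrophil markers, had log2 fold changes of 0.48 and 0.20 and did not pass.

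In the arm from MyD88 to NF-κB, 3 of 15 genes were higher and 0 lower, with a median log2 fold change of 0.52. Irak2, which sustains signalling after IRAK4, rose from 67.1 to 171 CPM (log2 fold change 1.35, edgeR adjusted p = 0.00283). The ubiquitin ligase genes Traf6 (0.86) and Peli1 (0.68) were higher by under 2-fold and are named after their values were seen. Tab1 was the lowest of the list, at -0.92 (edgeR adjusted p = 0.196). In the TRIF arm, which carries signals of internalised TLR4 to IRF3, 1 of 10 genes was higher and 0 lower, near the share of all genes. This was the adaptor gene Ticam1 itself, from 9.49 to 26.3 CPM (log2 fold change 1.47, edgeR adjusted p = 0.0243), and the lowest was Azi2, at -0.01. The median of the list was 0.35. Leaving out young B, young C or aged C brought the first arm to 1 gene and the second to 0, leaving out young A gave 4 in each, and limma-voom gave 6 and 3. The share of all genes that were higher moved as well. It was 3.57%, 1.24% and 2.87% without young B, young C and aged C, 13% without young A and 16.3% with limma-voom.

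Of 16 further inhibitors of the pathway, 6 were higher and 1 was lower, with a median of 0.55. Socs1 (log2 fold change 1.65), which blocks cytokine and TIRAP signalling, Tnip1 (1.63), a partner of the deubiquitinase A20, Zc3h12a (1.41), an RNase that degrades cytokine transcripts, and Nfkbia (1.01), which encodes the NF-κB inhibitor IκBα, were all called higher. Ptpn6, the gene of the phosphatase SHP-1, was called lower at -1.08, a call that held without young A and was lost without any of the other 5 samples. The log2 fold change of Irak3, 1.27, lay between those of Nfkbia and Zc3h12a.

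Target genes of lipopolysaccharide gave opposite counts in their 2 lists. Of 14 inflammatory targets, 13 were higher, 12 of them by more than 2-fold, and 0 were lower, with a median log2 fold change of 1.40. Il1a (2.52), Cxcl3 (2.34), Il23a (2.21) and Ccl3 (2.15) had the largest log2 fold changes, and Cxcl1 the smallest, at 0.87 (edgeR adjusted p = 0.173). Of 11 targets that depend on TRIF, IRF3 or type I interferon, 8 were lower, 7 of them by more than 2-fold, and 0 were higher, with a median of -1.35. Ifit3 (-2.36), Ifit2 (-1.80), Mx1 (-1.61) and Irf7 (-1.58) had the lowest log2 fold changes, and Cxcl10 the highest, at -0.51 (edgeR adjusted p = 0.248). In the fits without 1 sample, the number of inflammatory targets higher in aged samples ran from 5 (without young C) to 13, the number of interferon-type targets lower from 1 (without young C) to 8, and the number of inhibitors higher from 1 (without young C) to 7. The next lowest counts were 6 inflammatory targets and 2 inhibitors without aged C and 3 interferon-type targets without young B. Over all genes, 1.24% were higher and 0.548% lower without young C, 2.87% higher without aged C and 2.71% lower without young B. The part of the shift in neutrophil markers in these values, and in those of the members, was not tested. In aged B, the neutrophil markers Cd177, Lcn2 and Retnlg were above every young sample, S100a9, Csf3r, Mmp9 and Ltf were below every young sample, and S100a8, Ly6g, Cxcr2 and Ngp lay within the young range.

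**Figure D5:**
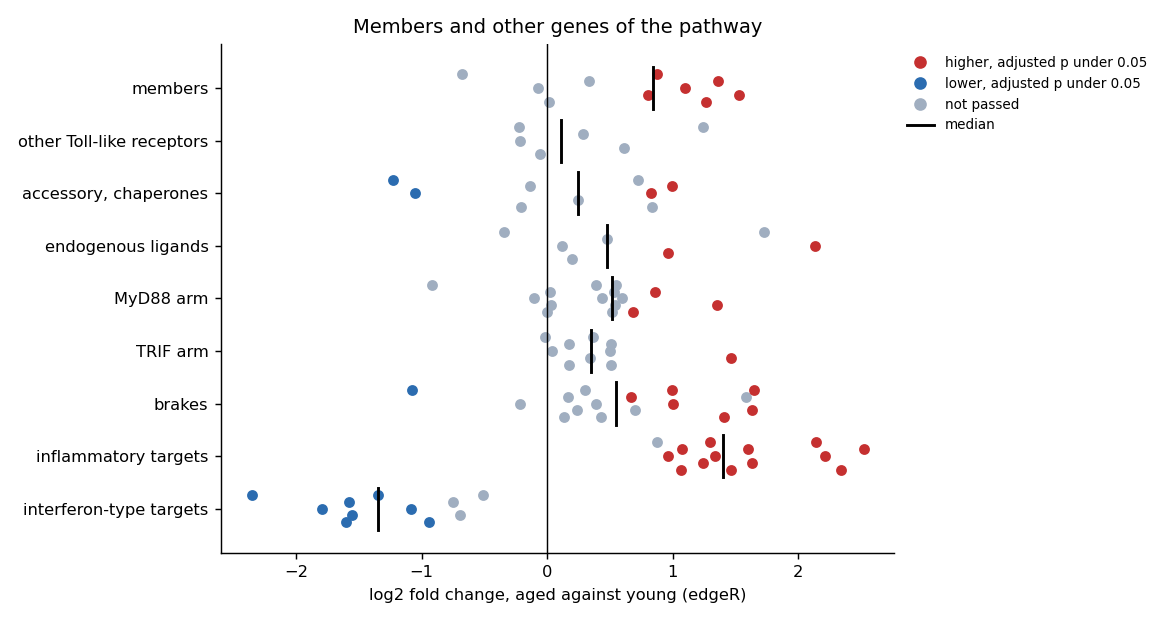
Log2 fold changes in aged against young samples (edgeR) of the members and of 8 lists of pathway genes, 1 point per gene, coloured where the adjusted p-value was under 0.05, with a black line at the median of each list. The median was 0.84 for the members, 1.40 for the inflammatory targets and -1.35 for the interferon-type targets.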

How the data were processed

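RNA of sorted Day 3 wound macrophages was amplified with the SMART-Seq v4 kit and sequenced with 150-base paired ends. In the study, STAR 2.7.3a mapped the reads to mm10, Partek Flow assigned them to Ensembl transcripts, and the authors deposited the resulting expected counts per gene, not normalised, for genes with at least 10 counts in all. A second deposited table of the authors' own DESeq2 comparison, with fold changes and p-values, was not used. Expected counts were rounded and tested with edgeR 4.0.16 in R 4.3.3 (TMM, filterByExpr by age, quasi-likelihood test, Benjamini-Hochberg adjustment over 11878 genes), and 95% intervals used the moderated degrees of freedom. DESeq2 1.42.0, limma-voom 3.58.1, other scaling and filters, a replicate block and leaving out each sample were alternatives, and the sum of Tlr1 and Tlr6, the coding length and the ratios with Cd180 and Ly86 were added after the data were seen. The design named raw counts. The scripts were tested on simulated data. Sequences and lengths came from GENCODE M21 and RefSeq, on the same build. Apart from all members, genes were named if called (up to 4 per list and direction) or highest or lowest of a list, and as markers of cell types. The members and lists were chosen with earlier results of these data known. Intervals cover the spread between samples, and a count of 1 was worth 0.0553 to 0.0701 CPM.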

Additional observations from a re-analysis of the deposited data

How the results depend on the processing

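Of 122 alternatives over the members' log2 fold changes, 12 brought an adjusted p-value from under to over 0.05, 2 did the reverse (both Tlr1), 6 changed sign and the others kept direction and side of 0.05. On the 2-fold threshold, Tlr6 fell to 0.96 and lost its call without aged A, and Tirap rose to 1.06 and was called without young A. Cd14 fell to 0.96 without aged C, where its edgeR adjusted p-value was also over 0.05 (0.0549). The changes of sign were in Ly96 (-0.075 to 0.19 over the fits without 1 sample), in Irak4 (0.000246 with limma-voom and sample quality weights, and -0.21 to 0.14 without 1 sample) and in Tlr1 when summed with Tlr6 (0.0050). Tlr2, Tlr4, Tlr6, Cd14, Tirap and Irak3 passed in all 6 alternatives of tool, scaling, filter and block. Members with an adjusted p-value under 0.05 and higher in aged samples numbered 2 to 6 when 1 sample was left out, those called higher 2 to 5 (2 without young C), 0 to 1 were lower at an adjusted p-value under 0.05, and 0 to 1 had every aged sample below every young one. The last was also 1 with library totals without TMM, in place of 0. With the set letter as a replicate block, 1 member (Tlr1, adjusted p = 0.0472) was lower, and calls over all genes were 592 higher and 464 lower, against 545 and 499 without it. Same-lettered samples had correlations of 0.18, -0.02 and 0.11 between their deviations, and the letters were not taken as pairs. So few correlations cannot exclude a pairing. Without young C, 149 genes were called higher and 64 lower, and without young A 896 and 607. The causes of these shifts were not tested. With 3 samples per age, a single ratio or gene cannot reach an exact p below 0.1. Depth as a limit was not tested.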
